A study of Mus musculus with 8 samples.

Results

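Methylation of DNA was examined at 33 genes of glycolysis and its control in mouse hematopoietic stem cells, with isoforms expressed in most tissues set beside isoforms of liver, muscle, brain and testis. A CpG, a cytosine followed by guanine, belonged to a gene when it lay between 5 kb before and 5 kb after it in RefSeq coordinates of the mm10 build. It was kept when at least 3 mice of each group had 10 or more reads over both strands. This gave 2545 kept CpGs, of 1278034 kept on chromosomes 1 to 19, at 32 of the 33 genes. Pgk2, the phosphoglycerate kinase of the testis, had none, and Pdk4 had 1. Of the 2545 CpGs, 1130 lay at 14 widely expressed isoforms, 452 at 5 muscle isoforms, 322 at 3 brain isoforms, 71 at 2 of 3 testis isoforms, 63 at the liver isoform Pklr, 59 at the leukocyte isoform Hk3 and 448 at 6 regulatory kinases.

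The series compared 4 Atg12 conditional knockout mice with 4 control mice by enhanced reduced representation bisulfite sequencing, which reads fragments rich in CpGs after bisulfite has converted unmethylated cytosines. Knockout mice carried loxP-flanked Atg12, a gene needed for autophagy, and Mx1-Cre, a recombinase under an interferon-inducible promoter that also acts in cells other than stem cells. The series' design text gives the controls loxP-flanked Atg12 without Cre, whereas their genotype label reads WT. All 8 mice were of strain C57BL/6, received poly(I:C), which induces interferon, at 4 weeks of age, and gave bone marrow 2 to 3 months later. Stem cells were sorted as Lin-, c-Kit+, Sca-1+, Flk2-, CD48- and CD150+ and were not cultured. DNA methylation does not show whether Atg12 had been deleted in the sorted cells.

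Glycolysis splits glucose into pyruvate, and lactate dehydrogenase or the mitochondria take the pyruvate further. Most of its steps are catalysed by several isoforms encoded by separate genes, some expressed in nearly every cell and others restricted to tissues such as liver, skeletal muscle, neurons or sperm. Hematopoietic stem cells are known for a low mitochondrial activity and a marked use of glycolysis. In mammals, promoters dense in CpGs are mostly unmethylated whether or not the gene is transcribed, whereas promoters poor in CpGs, frequent among tissue-restricted genes, are more often methylated where they are silent.

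The promoter sequences from RefSeq on build GRCm38.p6, which is mm10, run from 250 bp before to 50 bp after a transcription start. They show how unevenly the isoforms are placed for this assay. Ldha and Ldhc, the lactate dehydrogenases of most tissues and of sperm, are neighbours on chromosome 7. Pkm and Pklr encode pyruvate kinase in most tissues and in liver and red cells, and Slc16a3 encodes the lactate exporter MCT4 of muscle. Capitals mark the CpGs kept here, and CpGs in lower case were not kept.
Ldha start 1, chr7:46845554-46845853, plus strand: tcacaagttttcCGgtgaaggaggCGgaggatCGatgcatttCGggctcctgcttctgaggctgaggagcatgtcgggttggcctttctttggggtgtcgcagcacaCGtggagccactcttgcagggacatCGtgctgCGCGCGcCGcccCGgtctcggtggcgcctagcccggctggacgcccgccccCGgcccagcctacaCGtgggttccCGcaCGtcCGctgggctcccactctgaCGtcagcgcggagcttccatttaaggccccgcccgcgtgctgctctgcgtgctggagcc
Ldhc start 1, chr7:46861013-46861312, plus strand: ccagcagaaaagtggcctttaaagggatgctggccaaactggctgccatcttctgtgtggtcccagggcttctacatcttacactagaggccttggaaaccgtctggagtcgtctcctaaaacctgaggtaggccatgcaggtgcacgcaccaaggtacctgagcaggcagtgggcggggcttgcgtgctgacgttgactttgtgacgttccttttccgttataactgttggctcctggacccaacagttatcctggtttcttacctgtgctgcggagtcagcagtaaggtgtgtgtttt
Pkm start 1, chr9:59656326-59656625, plus strand: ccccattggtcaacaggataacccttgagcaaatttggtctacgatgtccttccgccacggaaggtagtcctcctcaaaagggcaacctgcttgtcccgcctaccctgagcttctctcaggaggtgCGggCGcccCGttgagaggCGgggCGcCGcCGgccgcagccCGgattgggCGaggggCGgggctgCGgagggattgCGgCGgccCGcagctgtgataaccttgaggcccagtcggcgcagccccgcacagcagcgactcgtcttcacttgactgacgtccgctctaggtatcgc
Pklr start 2, chr3:89136373-89136672, plus strand: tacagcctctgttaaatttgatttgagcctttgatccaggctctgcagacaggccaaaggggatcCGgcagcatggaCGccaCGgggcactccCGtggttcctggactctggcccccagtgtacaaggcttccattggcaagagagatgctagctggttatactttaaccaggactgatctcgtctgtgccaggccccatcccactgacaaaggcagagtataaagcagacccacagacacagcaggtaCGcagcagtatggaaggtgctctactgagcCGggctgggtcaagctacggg
Slc16a3, chr11:120948817-120949116, plus strand: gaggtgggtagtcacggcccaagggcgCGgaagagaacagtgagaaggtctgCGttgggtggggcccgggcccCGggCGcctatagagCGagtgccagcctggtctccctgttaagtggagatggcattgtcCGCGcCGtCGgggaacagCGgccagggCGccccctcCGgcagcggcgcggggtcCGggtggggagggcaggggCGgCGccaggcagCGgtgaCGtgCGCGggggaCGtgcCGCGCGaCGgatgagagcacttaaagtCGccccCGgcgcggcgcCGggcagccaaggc
Ldha start 1 held 30 CpGs in these 300 bp and 17 were kept, with a mean level of 0.133% over mice. Ldhc start 1 held 9 and none was kept. Pkm start 1 held 27, with 14 kept at 0.124%. Slc16a3 held 36, with 27 kept at 0.235%. Pklr start 2 held 8, with 6 kept that ran from 95.7% down to 9.72% along the sequence. Among 16457 autosomal protein-coding genes with a listed promoter, the median was 14 CpGs in 300 bp. All 258 kept CpGs inside the listed promoters of the 33 genes fell on a CG of the sequence.

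The libraries listed 2038266 to 3366162 cytosines per mouse, with a median coverage of 30 to 138 reads and none under 10. Kept CpGs of the glycolysis genes had a median of 228 reads, against 216 over all kept CpGs. Cytosines on the Y chromosome made up 7.9 to 9.01 per 10000 of those listed in the knockouts and 1.15 to 1.83 in the controls. Those on the X chromosome made up 1.83 to 1.93% in the knockouts and 2.42 to 2.54% in the controls. Genotype thus coincided with X and Y content, and they cannot be told apart. All 33 genes are autosomal, which does not separate genotype from that content. Of 8 genes that mark the sorted cells or blood identity, 4 had kept CpGs within 1 kb of the start, at 0.0377 to 0.25%. Of 10 genes of other blood cells, 4 had them, with Flt3 at 0.411%, Klf1 at 0.488%, Cd48 at 21.2% and Mpo at 39%. Methylation does not give expression, so these levels do not settle which cells were sorted.

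Around the glycolysis genes, methylation was low at gene starts and high elsewhere. Of 1054 CpGs within 1 kb of a gene's own listed start, 1023 were under 20% methylated and 13 over 80%. Inside the genes, away from any listed start or neighbouring gene end, 404 of 634 CpGs were over 80%, and in the flanks 140 of 207 were. The 634 include 85 CpGs of the brain isoform Slc2a3, which has no listed start, and 63 of these 85 were under 20%. A further 650 CpGs lay within 1 kb of a listed start of another gene, lncRNA genes included, or of an end of another protein-coding gene, and 538 of these were under 20%. In all, 70% of the genes' CpGs were under 20% and 25.6% over 80%, against 59.8% and 32.9% of all kept autosomal CpGs. The plot of CpGs by level shows how far the genes differ in this split.

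**Figure D1:**
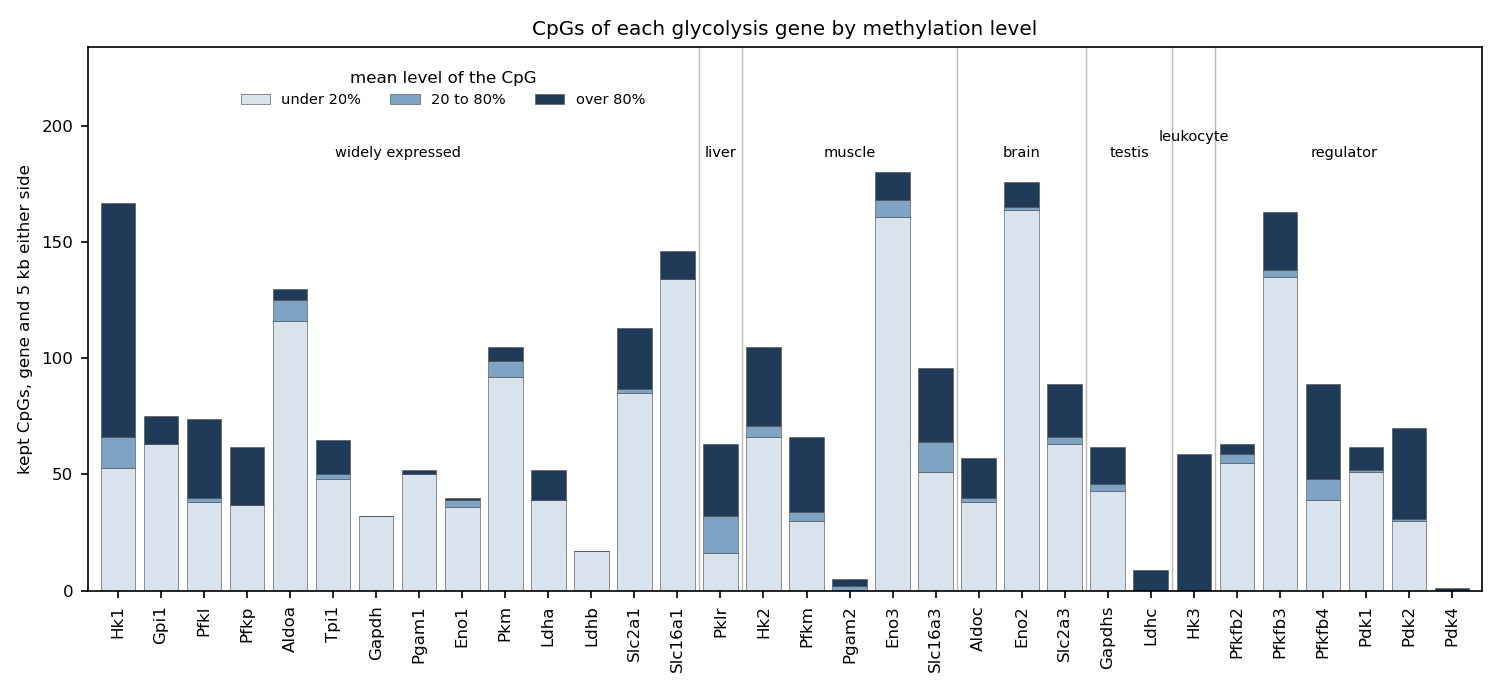
Number of kept CpGs from 5 kb before to 5 kb after each of 32 glycolysis genes, stacked by the CpG's mean level over mice and grouped by isoform class. Hk3, Ldhc and the single CpG of Pdk4 are over 80%, Gapdh and Ldhb have only CpGs under 20%, and most other genes have both.

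At the 14 widely expressed isoforms every kept CpG within 1 kb of an own start was under 20% methylated, 621 of 621, with a mean of 0.483%. These starts serve the whole chain of reactions. For the entry of glucose, Slc2a1, the glucose transporter GLUT1, had 67 such CpGs at 0.272%. For its first phosphorylation, Hk1, hexokinase 1, had 35 CpGs at its second listed start at 0.171%, while the nearest kept CpG to its first start lay 3855 bp away. Gpi1, glucose-6-phosphate isomerase, stood at 0.166%, and the phosphofructokinases Pfkl and Pfkp at 1.14% and 0.267%. The 13 genes with at least 3 CpGs read in all 8 mice had a median of 0.228% and ran from 0.0647% to 4.4%. Over all 10649 promoters measured in the same way, 85% were under 5% and the median was 0.288%, so levels this low were the rule in these cells.

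After the splitting of the sugar, the widely expressed isoforms were as low. Gapdh, glyceraldehyde-3-phosphate dehydrogenase, had 32 CpGs at 0.192%, Pgam1, phosphoglycerate mutase 1, 50 at 0.157%, Eno1, enolase 1, 36 at 0.172%, and Tpi1, triosephosphate isomerase, 17 at 0.845%. For the end of the pathway, Pkm had 51 CpGs at 0.115% around its first start and Ldha 35 at 0.156%. Ldhb, the lactate dehydrogenase subunit of heart, had 17 at 1.51%. Slc16a1, the lactate and pyruvate carrier MCT1, had 134 CpGs at 0.243%, the most of any single start among the 33 genes.

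Aldoa, aldolase A, had 3 listed starts at different levels. The first stood at 4.23%, with 3.84, 2.94, 4.22 and 5.61% in the 4 knockouts and 3.67, 2.46, 4.83 and 6.29% in the 4 controls. The groups overlapped throughout. At the third listed start the mean was 1.67%, and over the 15 CpGs in the 250 bp after it 0.116%. The 300 bp at the first start hold no CpG at all, and its methylated CpGs lay downstream, where 12 CpGs between 250 and 500 bp averaged 6.66%.

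The starts of the tissue isoforms fell into 2 sets. Hk2, Slc16a3, Eno2, Eno3 and the first start of Pfkm were low, while Pklr, Pgam2, Aldoc, Gapdhs, Hk3 and starts 2 and 3 of Pfkm had means of 40.4 to 94.6%. The methylated set rested on 1 to 6 kept CpGs per start, against 17 to 134 at the first measured starts of the widely expressed isoforms. The plot of each start by mouse shows both sets.

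**Figure D2:**
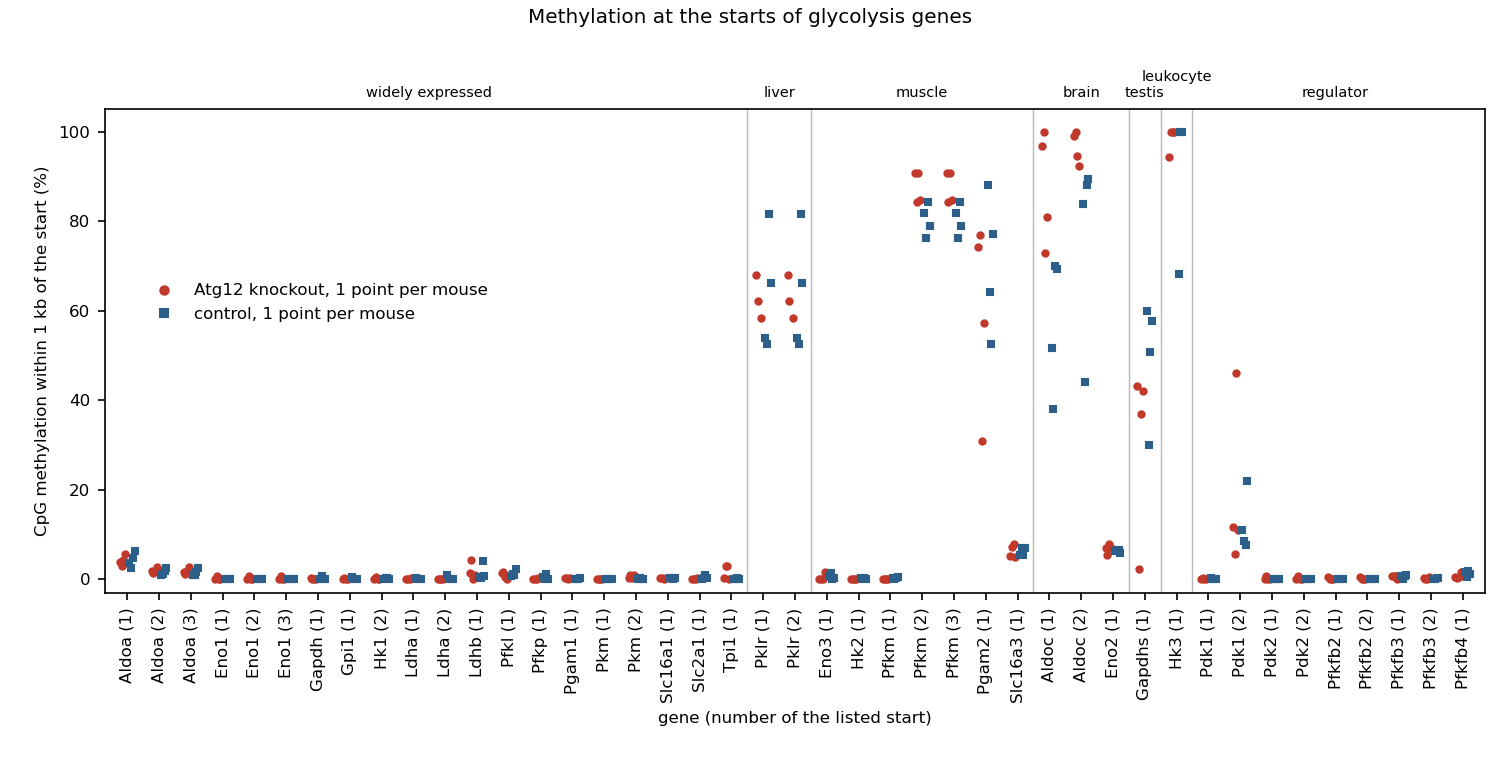
Methylation within 1 kb of each listed start with a kept CpG, 1 point per mouse, red circles for Atg12 knockouts and blue squares for controls, as the percentage averaged over that mouse's CpGs. The widely expressed isoforms lie under 7% in every mouse, and the high points belong to Pklr, Pfkm, Pgam2, Aldoc, Gapdhs, Hk3 and the second start of Pdk1.

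Pklr, the pyruvate kinase of liver and red cells, had 6 kept CpGs near its 2 starts, with a mean of 63.2%. Knockout mice 25, 28 and 46 stood at 67.9, 62.1 and 58.3%, and knockout mouse 45 had no value there, which means fewer than 10 reads. The controls stood at 53.8, 52.6, 81.7 and 66.3%. The groups overlapped, with 62.8% ± 4.84 (SD, n = 3) in knockouts and 63.6% ± 13.6 (SD, n = 4) in controls. The level was lower closer to the second start in the printed sequence. The CpGs 185, 173, 168 and 157 bp before it averaged 95.7, 84.9, 81.4 and 79.1%, the CpG 1 bp before it 28.7%, and the CpG 29 bp after it 9.72%. None of these 6 CpGs had reads in all 8 mice, and their median depth was 58 to 60 reads per mouse.

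Further out, Pklr had 16 of 63 CpGs between 20 and 80%, the highest number among the 33 genes. The 10 CpGs from 3613 to 3857 bp before the first start averaged 6.79%, with mice from 3.15 to 13.2%. The next 4 CpGs, between 3046 and 3196 bp before it, averaged 74.1 to 98.2%. A second low stretch lay beyond the far end of the gene inside Hcn3, an ion channel gene, where 5 CpGs averaged 8.72%.

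Hk3, the hexokinase of white blood cells, was methylated throughout, at 59 of 59 CpGs over 80%. A single CpG lay within 1 kb of its start, 969 bp downstream, at 94.3, 100, 100 and 100% in the knockouts and 68.2, 100 and 100% in 3 controls. Control mouse 37 had fewer than 10 reads there. Of the 59 CpGs, 29 lay within 1 kb of an end of another gene, by Unc5a, a netrin receptor gene that overlaps the far end of Hk3, and averaged 96.3%. Over 18 CpGs of the 1 kb window at that end the mice ran from 94.6 to 96.4%, the narrowest spread among the 70 windows of these genes over 80% (SD 0.584, n = 8). The promoter region itself, with 7 CpGs in 300 bp, was not measured.

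Among the testis isoforms only Gapdhs, the sperm form of glyceraldehyde-3-phosphate dehydrogenase, had a CpG near a start. Its 3 CpGs lay 535 to 593 bp upstream of its first start and averaged 40.4%. They lie inside the overlapping gene Sbsn and within the listed extent of Gapdhs itself. Knockouts stood at 43.1, 2.27, 37 and 42%, and controls at 60, 30.1, 50.9 and 57.6%. Knockout mouse 28 was far below the rest, and its CpG 593 bp upstream was at 4.55%, against 34 to 100% in the other mice. The 43 low CpGs of this gene lay by the start of Tmem147, a membrane protein gene beyond its far end, and averaged 0.356%, with mice from 0.109 to 1.21%. Ldhc had 9 CpGs, all over 80%, the nearest 4215 bp from its first start, and a window of 4 CpGs inside the gene averaged 95.8%, with mice from 89.5 to 98.1%. Ldha, upstream on the same strand, stood at 0.156%.

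Aldoc, the aldolase of brain, had 2 kept CpGs near its first start and 6 near its second. At the first, knockouts stood at 96.9, 100, 72.8 and 81% and controls at 51.6, 38.1, 70 and 69.2%, so that every knockout was higher, though only 1 of the 2 CpGs was read in all mice. At the second, knockouts stood at 99, 100, 94.6 and 92.4% and controls at 83.9, 44, 88 and 89.5%. These 6 CpGs include both CpGs of the first start, so the 2 starts are not separate evidence. At the other 4, all knockouts and control mouse 1 stood at 100% where read. Over the 6 the knockouts were all higher, though the mice were not read at the same CpGs. Control mouse 34, read at 4 of the 6, stood alone. Its 4 CpGs stood at 55.6, 20.6, 0 and 100%, and the CpG 281 bp after that start, at 0 in this mouse, ran from 87.3 to 100% in the others. The CpG 645 bp after the first start, which both starts count, was at 93.8, 100, 72.8 and 100% in knockouts. In controls it was at 43.2, 20.6, 70 and 38.5%, and it had 26 to 206 reads per mouse. The groups did not overlap at this CpG, where the means differed by 48.6 points, but the test was not passed (adjusted p = 0.755, quasi-binomial model with limma's moderation over all CpGs). The 38 low CpGs at Aldoc all lay just after the start of Pigs, a gene of GPI-anchor transfer, and averaged 0.289%.

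Eno2, the enolase of neurons, was low just downstream of its start despite its mean. Its 33 CpGs averaged 6.56%, with knockouts at 7.05, 5.37, 7.97 and 7% and controls at 6.25, 6.51, 6.53 and 5.81%. The groups overlapped. Of these, 31 lay 86 to 869 bp downstream and were under 5%. The other 2, 965 and 970 bp upstream inside Lrrc23, were at 97.8 and 91%. No CpG of its 300 bp promoter sequence was kept. Within 500 bp of the start the level was 0.369%. Slc2a3, the glucose transporter GLUT3 of neurons, has no listed promoter in the table used, but 63 of its 89 CpGs were under 20%. Its lowest windows stood at 0.0588, 0.234, 0.246 and 0.524%, and 35 CpGs of one of them lay at the upper end of the gene.

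The muscle isoforms were divided. Hk2, hexokinase 2, had 48 CpGs at its start at 0.127%, and Eno3, the enolase of muscle, 3 at 0.562%, all at least 966 bp from its start and inside Pfn1, the profilin 1 gene. Of the 180 CpGs at Eno3, 144 lay within 1 kb of an end of another gene, and 140 of these were under 20%. Pfkm, the phosphofructokinase of muscle, was at 0.157% around its first start. The 30 CpGs there lie at least 321 bp from that start, inside the overlapping Senp1, a SUMO protease gene read from the other strand. The second start of Pfkm, far downstream, was read only at 6 CpGs 701 to 885 bp before it, which start 3 shares. Their mean was 90.7, 84.2, 90.7 and 84.6% in knockouts and 81.8, 76.2, 84.3 and 78.9% in controls. The lowest knockout was just under the highest control, and 2 of the 6 CpGs had fewer than 10 reads in knockout mouse 28. Pgam2, the phosphoglycerate mutase of muscle, had 2 CpGs near its start, at 74.3, 76.9, 31 and 57.2% in knockouts and 88.1, 64.3, 52.6 and 77.2% in controls. Knockout mouse 45 was lowest, with 0 at the CpG 687 bp downstream and 61.9% at the other.

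Slc16a3 showed an edge of methylation at close range. The 24 CpGs in the 250 bp before its start, in capitals in the printed sequence, averaged 0.215%. The 9 CpGs in the 250 bp after it averaged 1.54%, and the 14 from 250 to 500 bp 18.9%, with mice from 16 to 22.9%. Within that stretch the level was uneven, with 5.59% at 306 bp, 19.8% at 355 bp, 4.89% at 412 bp and 52.7% at 451 and 457 bp. Knockouts averaged 19.7% ± 3.05 and controls 17.4% ± 1.27 (SD, n = 4 each) over the 14 CpGs. By comparison, the nearest CpG over 50% downstream of Ldha's first start lay at 4273 bp, of Hk2's at 3160 bp and of Slc2a1's at 1274 bp. Such distances depend on where CpGs were kept. At Ldha none was kept between 500 and 4273 bp, so the place of its edge is not known.

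Of the 6 kinases that set the pace of glycolysis and the fate of pyruvate, 5 were read at their first start and were low. Pfkfb2, Pfkfb3 and Pfkfb4 make and remove fructose 2,6-bisphosphate, the activator of phosphofructokinase, and their first starts stood at 0.115, 0.631 and 1.01%. Pfkfb3 had a second low start, with 55 CpGs at 0.226%. Pdk1 and Pdk2, which switch off pyruvate dehydrogenase, stood at 0.154 and 0.169%. Pdk4 had no kept CpG within 1 kb of its start. Its 1 kept CpG, 13828 bp downstream of the start, lay past the far end of the gene. This CpG was at 100% in all 4 knockouts and at 76.7, 61.5, 61.2 and 100% in the controls (20 to 50 reads per mouse). The second start of Pdk1 differed from the first. Its 4 CpGs stood at 11.8, 5.67, 46 and 11.1% in knockouts and 10.9, 8.65, 7.76 and 21.9% in controls. Knockout mouse 45 stood apart, with 100% at a CpG where the other mice ran from 0 to 26.8%.

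**Figure D3:**
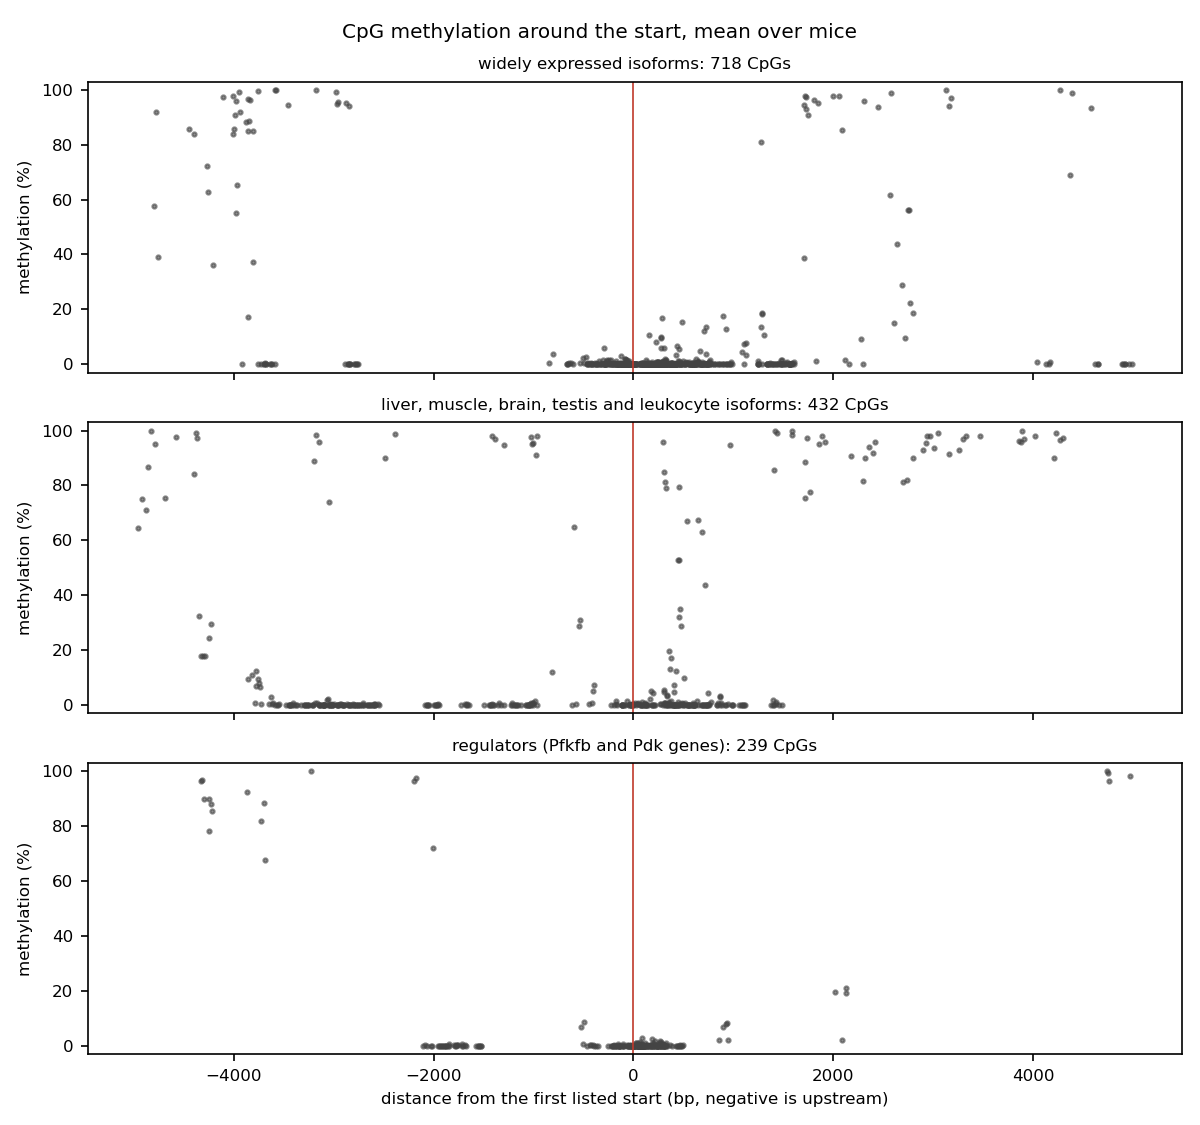
Mean methylation over mice of each kept CpG within 5 kb of the first listed start, by distance in bp, for widely expressed isoforms, tissue isoforms and regulatory kinases. Within 1 kb of the start the 3 panels share a floor close to 0. The tissue panel also holds scattered CpGs there over 20%, at Pklr, Aldoc, Pgam2, Gapdhs, Slc16a3, Eno2 and Hk3. Further out, all 3 panels hold CpGs over 80%.

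Methylation within 1 kb of a start went with the CpG content of its 300 bp promoter sequence. The 14 widely expressed isoforms had a median of 19 CpGs in the 300 bp of their first promoter (0 to 42), the 12 tissue isoforms 5.5 (1 to 36), and the 6 kinases 20.5 (12 to 30). Of 30 measured starts with 10 or more CpGs, 27 were under 5%, the exceptions being Slc16a3 at 6.27%, Eno2 at 6.56% and start 3 of Pfkm at 83.9%. Of 13 with fewer, 4 were under 5%. Low starts of low content were the first of Aldoa and of Pfkm, Eno3 and the second of Pfkfb2, and those of Pfkm and Eno3 were read only inside a neighbouring gene. Several starts share CpGs, so these are not independent points, and no test was made of the 2 classes. The methylated starts also had few kept CpGs, as given above. Of the starts over 20%, only start 2 of Pklr had kept CpGs inside its 300 bp. The others, and some low starts, were read only outside it, so their content and level come from different stretches.

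**Figure D4:**
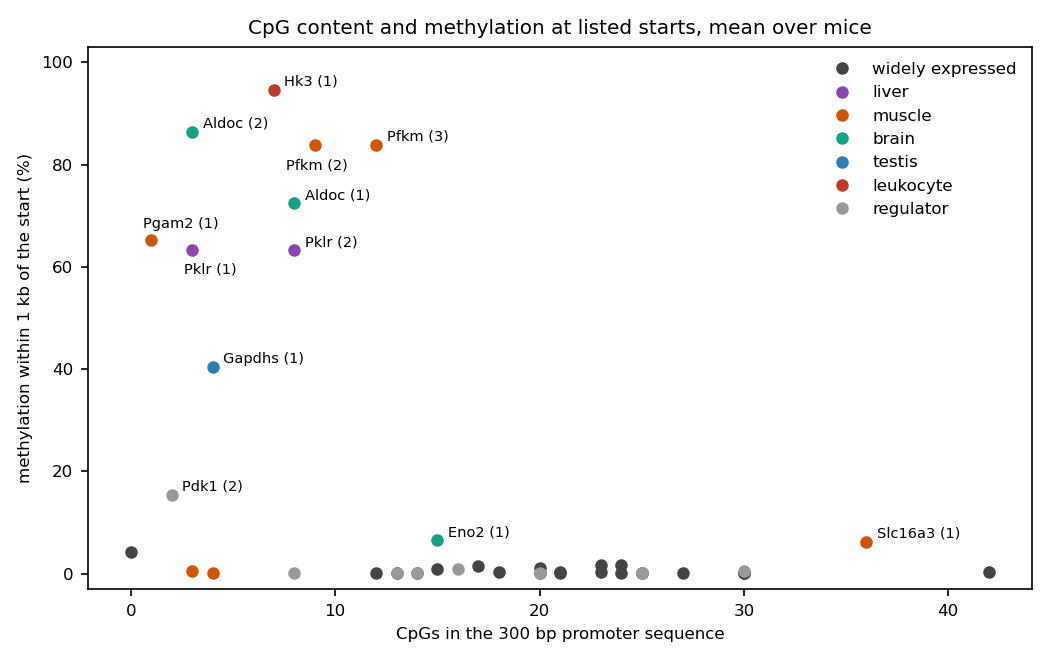
CpGs in the 300 bp promoter sequence against mean methylation within 1 kb, 1 point per listed start, coloured by isoform class. Starts with 10 or more CpGs lie near 0 apart from start 3 of Pfkm at 83.9%, and the methylated starts gather at low content.

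Short sequence motifs were counted in the first listed promoters on both strands. GGGCGG, the GC box bound by Sp1, was in 9 of 14 widely expressed isoforms, 4 of 12 tissue isoforms and 4 of 6 kinases, and in 47.3% of all promoters of the same length. ACGTG, the core of the hypoxia response element, was in 5 of 14, 6 of 12 and 3 of 6, against 21% of all promoters, and counts any CACGTG as well. CACGTG, the E-box, was in Slc16a1, Ldha, Pfkm, Pfkfb2 and Pdk2, and in 7.96% of all. Among these first promoters TATAAA was in Slc2a1 and Eno2 only, against 13.5% of all. The printed Pklr sequence, of its second start, also holds TATAAA but was not counted. CCAAT was in 5 of 14, 4 of 12 and 4 of 6, against 39%. In the printed Ldha sequence both copies of CACGTG hold a kept CpG, as do both copies of ACGTG in that of Slc16a3.

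Some low stretches lay away from listed starts. Of 163 windows of 1 kb that touched the genes' regions, with at least 3 CpGs of 10 or more reads in all mice, 75 were under 20%, 70 over 80% and 18 between. Of the low windows, 13 lay over 2 kb from the gene's listed starts, from the listed starts of other genes, lncRNA genes included, and from the ends of other protein-coding genes, 4 of them in Slc2a3, whose starts were not listed. The others included a window in Hk1 at 1.93% (7 CpGs), 1 in Hk2 at 6.53%, 1 in Pkm at 0.437% and 1 upstream of Ldha at 1.46%. A window of 5 CpGs in Pfkfb3 held no methylated read among 1877 over all mice, which allows up to 0.16%. In Pfkfb4 a boundary fell between adjacent windows, with CpGs at 89.2, 6.3, 2.01, 1.86, 0.0283 and 0.897% then 3 from 25.3 to 34.6% and 6 from 86.8 to 100%.

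A window between 20 and 80% could be made up in different ways. In Usp5, beside Tpi1, 4 CpGs averaged 46.7% with mice from 40.7 to 51.3%, yet the single CpGs were at 17.3, 0, 84 and 85.6%. In Aldoa, 8 CpGs at 31.3% ran from 9.45 to 56.1%, and beside Eno3, 6 CpGs inside Pfn1 at 23.4% ran from 17.9 to 32.3%. In sorted cells read in bulk, partial methylation of every cell and full methylation of some cells or alleles cannot be told apart. The spread over mice was widest upstream of Eno1, where 4 CpGs ran from 36.2% in knockout mouse 45 to 84.6% in control mouse 36.

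Between genotypes, no glycolysis gene passed the test in any unit. Over 2174 CpGs with reads in all mice the knockouts averaged 22.8% ± 0.175 and the controls 23% ± 0.253 (SD, n = 4 each), which is −0.212 points in knockouts, against −0.0816 over all such autosomal CpGs. Of 440 CpGs tested at these genes, 0 were called at an adjusted p of 0.05, and the smallest adjusted p was 0.632 (quasi-binomial model, Benjamini-Hochberg over all 313039 CpGs tested). Over all tested CpGs, 0.00735% were called. At an unadjusted p under 0.05 there were 20, or 4.55%, against 6.52% of all, and 15 of the 20 were lower in knockouts. Over all tested CpGs 20398 had such a p, 12895 of them lower, which is 4.12% of those tested. Limma on log2 ratios also called 0 of the 440, with 9 at an unadjusted p under 0.05.

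Groups did not overlap at 7 of the 440 CpGs, 6 higher and 1 lower in knockouts, where 3.11% of all tested CpGs did so, 1.57% higher and 1.54% lower. Pkm had one such CpG 1274 bp downstream of its first start, at 4.76, 41.4, 16.4 and 47.2% in knockouts and at 0 in all controls. The control reads numbered 345, so up to 0.87% is allowed, and the adjusted p was 0.725. Aldoc's has been given above, and the others lay inside Pfkp and Pklr and, within 5 kb of the gene but inside a neighbour, by Hk3 (in Unc5a), Eno2 (in Atn1) and Aldoa (in Ppp4c), with adjusted p from 0.752 to 0.852. The smallest p was at a CpG 4006 bp upstream of Hk1, inside Hkdc1, with 77.6, 55.4, 47.6 and 100% in knockouts and 91.7, 100, 99.3 and 100% in controls (adjusted p = 0.632). Knockout mouse 46 matched the controls there.

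Of 53 tested 1 kb windows, 0 were called, 36 were lower and 17 higher in knockouts, and 1 had an unadjusted p under 0.05. Of all tested windows, 21156 were lower and 18747 higher. Over all 39903 windows, 0% were called and 6.5% had such a p, and the smallest adjusted p of the glycolysis windows was 0.733. Limma also gave 0 calls with 1 at p under 0.05, and edgeR 0 with 0. The window in question lay in Pklr, at 89143001 to 89144000 of chromosome 3, inside the gene. Its 13 CpGs averaged 74.9, 84.2, 69.4 and 74.8% in knockouts and 87, 81.5, 82.6 and 84.9% in controls. Knockout mouse 28 lay among the controls and the other knockouts below them, for 75.8% ± 6.14 against 84% ± 2.47 (SD, n = 4 each, adjusted p = 0.733, from 0.558 to 0.9992 over 16 alternatives).

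The other windows of small p differed by less or varied more. Upstream of Eno1, knockouts stood at 66.2, 63.7, 36.2 and 77.4% and controls at 80.1, 60.1, 84.6 and 68.8% (adjusted p = 0.78), with knockout mouse 45 lowest. Beside Hk1, in Hkdc1, the values were 85.2, 84.8, 81.7 and 95.8% against 88.1, 95.9, 97.6 and 89.9% (adjusted p = 0.777). A second window, within Hk1, stood at 90, 96.6, 90 and 92.3% against 97.7, 89.3, 96.8 and 93.2% (adjusted p = 0.792). In both, the groups overlapped. In Atp4a, a proton pump gene beyond the end of Gapdhs, knockouts were the higher, at 97.8, 100, 99.5 and 95.3% against 95.7, 90.9, 92.9 and 85.6% (adjusted p = 0.795). Of the 5 CpGs in that window 3 lay more than 5 kb from Gapdhs.

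Of the remaining 5, all with a lower knockout mean, Pdk1 had the only one of the 53 windows without overlap. There knockouts stood at 80.1, 96.08, 92.2 and 95% and controls at 98.7, 96.3, 96.12 and 96.6% (adjusted p = 0.8286), so the gap between groups was far smaller than the spread within knockouts. Over all tested windows 3.31% did not overlap, 1.91% with knockouts lower. Pdk2 stood at 97.4, 95.2, 83.4 and 84.3% against 94.5, 100, 90.8 and 100%. The window of Pklr inside Hcn3 stood at 71.6, 79.4, 74.9 and 64% against 80.5, 64.9, 77.9 and 78.8%. At the far end of Slc16a3 the values were 53.4, 41.6, 61.2 and 50.8% against 66.6, 47.6, 66.3 and 49%, and in Hk2 94.8, 99.89, 86.8 and 92.4% against 99.2, 94.9, 93.7 and 96.7%. These 4 overlapped between groups, with adjusted p from 0.806 to 0.848. Knockout mouse 45 was the lowest of the 8 mice in 17 of the 53 windows and knockout mouse 25 in 10, and the part of these libraries in the lower knockout means was not tested.

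**Figure D5:**
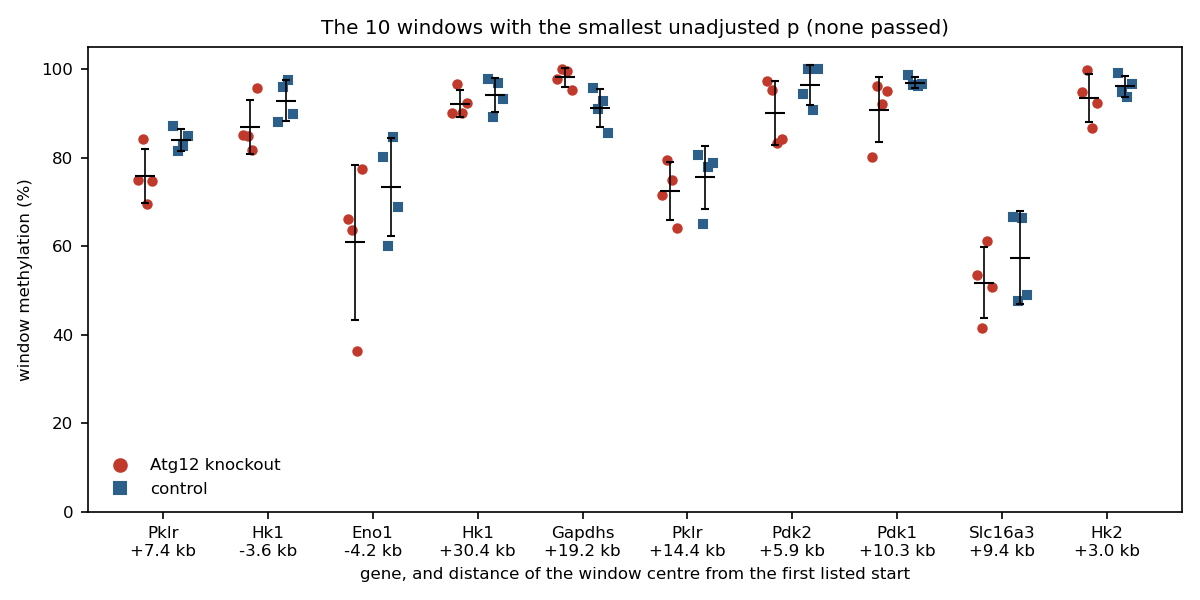
Methylation of the 10 glycolysis windows of smallest unadjusted p, 1 point per mouse, with bars for the mean and SD over 4 mice. The windows are named by gene and by the distance of their centre from the first start, and the groups overlap in all but the Pdk1 window.

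At the level of whole promoters there was little left to test, since only features with 5 to 95% of their summed reads methylated, averaged over mice, were tested. Of 23 glycolysis promoters with at least 3 CpGs read in all mice, only Eno2 lay in that range. Its mean over CpGs was 8.08% ± 0.926 in knockouts and 7.94% ± 0.402 in controls (SD, n = 4 each, adjusted p = 0.998). Of 1233 promoters tested in all, 0% were called and 6.73% had an unadjusted p under 0.05. Of 31 measured glycolysis gene regions, each a gene with 5 kb on both sides, 20 were tested. Of these 20, 0 were called and 0 had such a p, against 0% called and 2.52% of 11040. The smallest was Ldha's (adjusted p = 0.9998), with 10.9% ± 0.947 against 11.2% ± 0.636 (SD, n = 4 each). For promoters and gene regions, limma and edgeR also gave 0 calls and 0 at p under 0.05 among these genes.

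The other genes of glucose metabolism, 39 listed from gluconeogenesis, the pentose phosphate pathway, pyruvate oxidation and glucose transport, were read in the same way. Of 36 autosomal ones, 23 had a measured promoter, 17 of them under 5% and 1 over 80%. The other 6 were Fbp2, the fructose bisphosphatase of muscle, at 93.3%, Pck1, the cytosolic phosphoenolpyruvate carboxykinase of liver, at 77.2%, Fbp1, the fructose bisphosphatase of liver, at 68.3%, Ldhd, D-lactate dehydrogenase, at 41.6%, Pdp2, a pyruvate dehydrogenase phosphatase, at 24.6%, and Taldo1, transaldolase, at 12.9%. Hif1a, the hypoxia factor that drives many glycolysis genes, stood at 0.151%. Of 5 tested, 0 were called, and Taldo1 was not tested because its summed reads were under 5% methylated. Pck1 had the smallest adjusted p (0.708), though its mean over CpGs was 77.7% ± 2.3 in knockouts and 76.7% ± 1.64 in controls (SD, n = 4 each), a difference within the spread.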

How the data were processed

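Enhanced reduced representation bisulfite sequencing was read for 8 mice, 4 per group. Per the submitters' processing notes, CASAVA 1.8.2 and Bismark were used with build mm10. The authors deposited for every cytosine its coverage, a count of reads that was not normalized, and, per the file headers, the percent of those reads that showed C or T. Methylated and unmethylated reads were recovered from both, and 99.96 to 99.98% of values lay within 0.05 of a whole read. Reads of both strands of a CpG were added, and 10 reads were required per CpG and mouse.

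The levels given are means over CpGs in each mouse. Near starts a mouse's mean is over the CpGs it covers. Tests used summed reads in a quasi-binomial logistic model with overdispersion moderated by limma 3.58.1 in R 4.3.3, two-sided, with Benjamini-Hochberg adjustment over all autosomal features of a kind and a threshold of 0.05. Features were tested where 5 to 95% of their summed reads, averaged over mice, were methylated, which can differ from the mean over CpGs. A missing value means fewer than 10 reads. Windows of 1 kb on a fixed grid, 3 of which hold CpGs beyond the genes' 5 kb flanks, promoters of 1000 bp on both sides of the first listed start, and gene regions needed 3 CpGs read in all 8 mice. Alternatives were limma on log2 ratios with a pseudocount of 1 read, edgeR 4.0.16, other filters and leaving out each mouse. The code was tested on simulated data.

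The genes, classes and lists were chosen with earlier results of these data known, so class differences are described and not tested. Values per mouse are given for starts of at least 20% or with a range over 10 points among 3 or more CpGs, and for the 10 windows of smallest p. Single CpGs, low windows and bins beside starts were chosen after their values were seen. Of the 33 genes, 32 matched a RefSeq promoter. No molecular identifiers were used here, so reads are not independent molecules and limits at 0 (3 counts) cover counting error only.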

Additional observations from a re-analysis of the deposited data

Results flagged for a closer look

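In 110 groups of 4 mice, 16 held a mouse that stood apart by more than Dixon's critical value for 4 samples. For independent, normally distributed values, chance gives this in about 1 of 20 groups. Many groups lay close to the lowest or highest possible level, and the same mice recur across groups, so this rate need not hold here. Whether 16 exceeds what chance gives was not tested. The groups were 72 at listed starts, 20 at the 10 named windows, 12 at single CpGs and 6 at a promoter, a gene region and the mean over all CpGs. Starts of a gene with the same set of CpGs were counted once, but sets that overlap in part were counted separately.

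At the methylated starts, the lowest control at start 2 of Aldoc was at 44.0% and the next at 83.9%. At the first start of Gapdhs the lowest knockout was at 2.27% and the next at 36.98%. At the start of Hk3, which rests on 1 CpG, the lowest knockout was at 94.3% and the others at 100%. At start 2 of Pdk1 the highest knockout was at 46% and the next at 11.8%.

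At starts near 0, the highest knockout stood apart at Gpi1 (0.367%, next 0.0805%), Eno1 (0.677%, next 0.0913%), Eno3 (1.67%, next 0.154%), Pfkfb4 (1.57%, next 0.478%) and Pdk2 (0.691%, next 0.15%). The highest control stood apart at Gapdh (0.706%, next 0.0905%), start 2 of Ldha (1%, the others 0), Ldhb (4.07%, next 0.676%) and Slc2a1 (0.972%, next 0.246%). At start 1 of Pfkfb3 the lowest knockout was at 0.171% and the next at 0.768%.

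At the CpG of Hk1 with the smallest p the lowest control was at 91.7% and the next at 99.3%. Over all glycolysis CpGs the lowest control averaged 22.6% and the next 23.1%.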

How the results depend on the processing

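For the 33 genes, 0 CpGs, windows, promoters and gene regions were called under every alternative run. Over all CpGs the 23 calls became 40 at 20 reads, 0 without moderation, 0 with limma on log2 ratios, 0 without the filter on level, 1 without the deepest CpGs and 14 without control mouse 34 and knockout mouse 25, the libraries of lowest coverage ratio. Leaving out 1 mouse gave 1 to 191 CpGs (1 without knockout mouse 25, 191 without knockout mouse 45, 39 without control mouse 1, 47 without control mouse 34). Windows went from 0 to between 0 and 32 (7 without knockout mouse 45, 32 without control mouse 34), and to 6 without both libraries of lowest ratio. The cause was not tested. The 10 named windows kept their direction in all 16 alternatives. The Eno2 promoter, at 8.01%, was at 6.56% over all kept CpGs, at 0.369% within 500 bp, where the 2 distant methylated CpGs are left out, and at 6.36 to 8.18% with 1 mouse left out (6.36% without knockout mouse 45). Its difference of 0.141 points ran from −0.125 to 0.561, with −0.0518 without knockout mouse 25, −0.125 without knockout mouse 46 and −0.0469 without control mouse 37. No paired analysis was possible because the mouse numbers are not shared between groups. The assay reads few CpGs at promoters poor in CpGs, which limits the tissue isoforms most.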
